A study of Mus musculus with 6 samples.

Results

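The MYC, MAX and MXD network was followed through 10 genes in mouse podocytes (MPCs) kept in high glucose (HG) with or without fibroblast growth factor 1. The members were chosen by name, with earlier results of these data known. Every one of them had 1 row among the 24469 loci of the expression table. Had a symbol held several rows, the row with the highest mean expression would have been taken, so that measured values chose no row here. MPCs are a conditionally immortalized mouse podocyte line, and the labels say that the cells were differentiated for 10 days without interferon gamma. All 6 libraries came from cells starved of serum for 12 h and then held in 25 mM glucose for 12 h. In 2 libraries, called HG, no protein was given before the glucose. Another 2 received wild-type recombinant FGF1 (rFGF1WT) and the last 2 received rFGF1ΔHBS, a mutant with altered heparan sulfate binding sites, each at 100 ng/mL for 1 h before the glucose. Cells in normal glucose and cells in the mannitol osmotic control were not analysed here, so that an effect of the glucose itself cannot be read from these libraries. The labels do not say whether the libraries of a group came from separate cultures, and the p-values then measure only the spread between these samples, which may be technical.

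MYC proteins are basic helix-loop-helix leucine zipper transcription factors that bind DNA only as a pair with their partner MAX. The pair sits on the E-box CACGTG and raises transcription of genes for ribosome assembly, nucleotide and polyamine synthesis and cell growth. The MXD proteins, MXI1, MNT and MGA also need MAX and E-boxes, but they bring in repressor complexes, and the balance between activators and repressors is the usual way of describing the network. Growth factors that signal through receptor tyrosine kinases, as FGF1 does, are well-known inducers of Myc mRNA in many cell types.

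The members map to separate places in the mouse genome (GRCm38, GENCODE M21). Myc lies at chr15:61985391-61990374 on the plus strand, and Mycn at chr12:12936093-12941914 on the minus strand. Mxd4, the repressor gene that separated the proteins most, lies at chr5:34173883-34187720 on the minus strand. All 10 are protein-coding genes, and each locus held transcripts of no other gene.

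Sequences from 250 bases before to 50 bases after the transcription start were taken from RefSeq (GRCm38.p6), which gave a window for 9 of the 10 members, with 3 windows for Mxi1. The windows were searched on both strands for the E-box CACGTG, the network's own binding motif, which 7.15% of 32851 windows of all genes held. The windows of Max, Mxd4 and Mnt held 1 E-box each. Those of Mycn, Mycl, Mxd1, Mxi1, Mxd3 and Mga held none. The windows of Mycn and Mxd4 are shown because these genes changed most, and those of Max and Mnt because they carry the E-box. Capitals mark the E-box CACGTG in Max, Mxd4 and Mnt, and in Mycn they mark TTTGGCGC, a spelling of the E2F motif that was searched for only after the sequence had been seen.
Mycn, chr12:12941787-12942086, minus strand: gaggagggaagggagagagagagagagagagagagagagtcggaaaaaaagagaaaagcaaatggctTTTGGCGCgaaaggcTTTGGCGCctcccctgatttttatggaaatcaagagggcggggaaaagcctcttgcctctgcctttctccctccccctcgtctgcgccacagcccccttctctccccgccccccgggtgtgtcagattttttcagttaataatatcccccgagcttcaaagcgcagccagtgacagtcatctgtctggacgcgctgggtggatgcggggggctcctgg
Max, chr12:76962199-76962498, minus strand: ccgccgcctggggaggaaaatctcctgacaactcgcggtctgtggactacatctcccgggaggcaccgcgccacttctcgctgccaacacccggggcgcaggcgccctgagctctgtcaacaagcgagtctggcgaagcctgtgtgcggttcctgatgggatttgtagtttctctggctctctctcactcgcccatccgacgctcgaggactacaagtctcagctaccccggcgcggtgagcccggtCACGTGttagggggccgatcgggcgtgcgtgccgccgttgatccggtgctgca
Mxd4, chr5:34187661-34187960, minus strand: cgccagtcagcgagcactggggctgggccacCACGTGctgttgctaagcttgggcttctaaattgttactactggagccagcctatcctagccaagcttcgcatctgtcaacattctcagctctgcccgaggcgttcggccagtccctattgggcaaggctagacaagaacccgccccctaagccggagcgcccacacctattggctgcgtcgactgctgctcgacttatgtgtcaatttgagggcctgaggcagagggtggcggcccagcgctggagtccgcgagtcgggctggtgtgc
Mnt, chr11:74830674-74830973, plus strand: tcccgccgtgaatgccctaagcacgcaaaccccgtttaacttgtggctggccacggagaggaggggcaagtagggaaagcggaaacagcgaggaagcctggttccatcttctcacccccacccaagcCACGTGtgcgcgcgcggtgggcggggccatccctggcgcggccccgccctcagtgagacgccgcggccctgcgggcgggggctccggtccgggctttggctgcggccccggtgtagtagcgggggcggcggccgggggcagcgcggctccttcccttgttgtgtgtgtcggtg
Counted from the transcription start, the E-box began at -3 in Max, at -219 in Mxd4 and at -123 in Mnt. The 2 copies of TTTGGCGC in the Mycn window began at -183 and -168, and 0.514% of all windows held at least 1 copy. The E2F spelling TTTCCCGC, found in 1.07% of all windows, and the ETS motif CCGGAAGT, found in 3.89%, were in no member's window. TATAAA, found in 13.6% of all windows, was in the window of Mycl alone among the members. A match of letters is a description of these windows and not a measured binding site.

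Expression is given as FPKM, fragments scaled by library size and by transcript length, which allows levels of different genes to be set side by side. Differences were tested with limma on log2(FPKM + 1) over 10562 loci whose mean FPKM reached 1, with Benjamini-Hochberg adjustment over all of them, and a locus was called when its adjusted p was under 0.05. A fold change on this scale understates the change of low genes. Of the 10 members, 9 entered the test and Mycl fell below the limit. No member was at 0 in any library. Replicates correlated at 0.916 to 0.923 in log2(FPKM + 1) over the tested loci, and libraries from unlike groups at 0.895 to 0.924. Of the podocyte markers, Cd2ap had a mean of 60.7 FPKM, Kirrel 29.2 FPKM, Podxl 16.0 FPKM and Synpo 6.82 FPKM. The defining podocyte markers Wt1 and Ptpro were near 0, at means of 0.0376 and 0.0168 FPKM, and Nphs1 had a mean of 0.781 FPKM. The summed podocyte marker level was 97.1 to 98.8 FPKM in HG, 128 to 133 FPKM with rFGF1WT and 113 to 119 FPKM with rFGF1ΔHBS, and its part in the results below was not tested. In bulk RNA, fewer cells of a type and less RNA per cell cannot be told apart.

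With rFGF1WT, Myc, Mycn and Mxd4 were called higher than in HG, and no member was called lower. In the counts that follow, rose and fell mean called higher and called lower. These 3 called members of 9 tested stand beside 6.19% of all tested loci called in this comparison, 3.26% higher and 2.94% lower. With rFGF1ΔHBS, Mycn rose and Mxd4 fell, 2 of 9 members called beside 6.26% of all loci, 3.37% higher and 2.89% lower. Between the proteins, Mxd4 was the only member called, 1 of 9 beside 0.549% of all loci, and it was lower with rFGF1ΔHBS, as were 0.256% of all loci, while 0.294% were higher. When the change also had to be at least 2-fold on the tested scale, Mycn was the member called in each comparison with HG and Mxd4 the member called between the proteins, beside 1.01%, 0.899% and 0.35% of all loci. Both comparisons with HG share the same HG libraries and are not independent. As the members were chosen with earlier results of these data known, these shares are no independent test of the network.

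**Figure D1:**
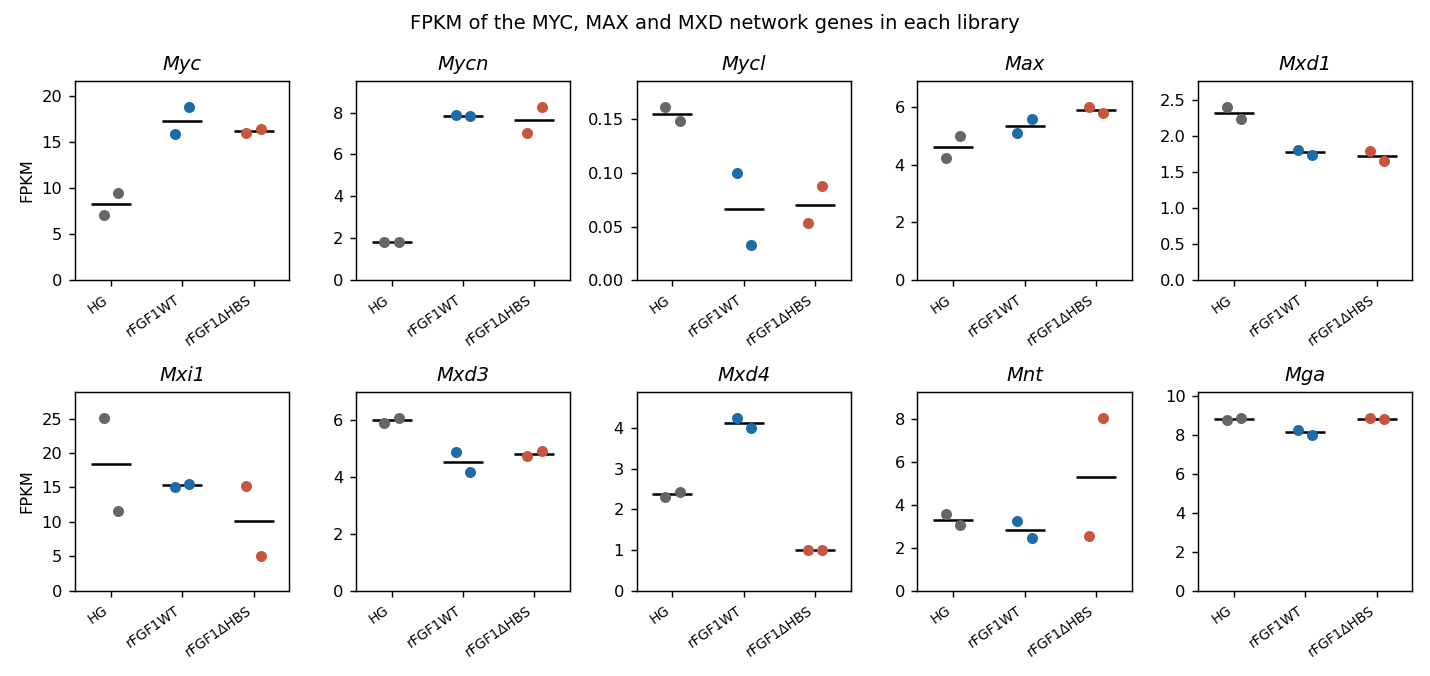
Expression of the 10 members, with FPKM on the vertical axis from 0 and the 3 groups on the horizontal axis. Each point is 1 library and each line is the mean of the 2 libraries of a group. Mycn rises from about 1.81 FPKM in HG to means of 7.85 and 7.64 FPKM, Mxd4 is highest with rFGF1WT and lowest with rFGF1ΔHBS, and the replicates of Mxi1 and Mnt lie far apart in some groups.

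Among the activators, Myc, the founding member of the family, had 7.11 and 9.52 FPKM in the HG libraries, 15.9 and 18.8 FPKM with rFGF1WT and 16.0 and 16.5 FPKM with rFGF1ΔHBS. The 4 treated values exceeded both HG values, and the ranges of the proteins overlapped. The means were 8.32 ± 1.70 (SD, n = 2), 17.4 ± 2.09 (SD, n = 2) and 16.2 ± 0.360 FPKM (SD, n = 2). Myc was 2.09-fold higher with rFGF1WT by the ratio of means, with a log2 change of 0.98 (SE 0.16) and an adjusted p of 0.0457 by limma with Benjamini-Hochberg adjustment. With rFGF1ΔHBS the ratio of means was 1.95, the log2 change 0.90 (SE 0.16) and the adjusted p by the same method 0.0531, which just missed the threshold. That one value passed and the other did not does not show a difference between the proteins. The direct difference in log2 was -0.09, with a 95% interval from -0.51 to 0.34 that still holds moderate differences in both directions. The call with rFGF1WT was lost without any 1 of the 6 libraries, where the adjusted p by limma ran from 0.0620 to 0.145, while the log2 change stayed between 0.80 and 1.17.

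Mycn, the family member known from neural and kidney development and from neuroblastoma, changed most. It had 1.82 and 1.80 FPKM in HG, 7.87 and 7.82 FPKM with rFGF1WT and 7.03 and 8.26 FPKM with rFGF1ΔHBS. The gap between HG and either protein was far wider than the spread between replicates. Mycn was 4.33-fold higher with rFGF1WT by the ratio of means, and its log2 change on the tested scale was 1.65 (SE 0.09) with an adjusted p of 0.00661 (limma, Benjamini-Hochberg). For rFGF1ΔHBS the ratio was 4.22, the log2 change 1.62 (SE 0.09) and the adjusted p from the same fit 0.00806. The proteins differed by a log2 of -0.04 in Mycn, with a 95% interval from -0.28 to 0.20, so that a difference of more than that size in either direction lies outside the interval. The Mycn window printed above holds the pair of TTTGGCGC matches and no E-box.

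Mycl, the third MYC gene, was barely detected. Its level was 0.161 and 0.149 FPKM in HG, 0.0995 and 0.0326 FPKM with rFGF1WT and 0.0531 and 0.0874 FPKM with rFGF1ΔHBS. The HG libraries were the higher ones, but at such levels a library holds few fragments. In a fit with no limit on low values, its adjusted p by limma was 0.273 with rFGF1WT and 0.291 with rFGF1ΔHBS.

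Mycn made up 20.0% and 15.7% of the summed MYC-gene FPKM in the HG libraries. The share was 33.0% and 29.3% with rFGF1WT and 30.5% and 33.3% with rFGF1ΔHBS. Myc thus remained the more abundant of these mRNAs in every library, with Mycn taking a larger share in all 4 treated libraries than in either HG library.

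Max, the partner that activators and repressors both require, had 4.22 and 4.98 FPKM in HG, 5.09 and 5.56 FPKM with rFGF1WT and 5.997 and 5.80 FPKM with rFGF1ΔHBS. The treated libraries all lay above the HG libraries, yet the steps were small. The log2 change was 0.18 (SE 0.09) with rFGF1WT and 0.30 (SE 0.09) with rFGF1ΔHBS, and neither passed, with adjusted p of 0.333 and 0.149 by limma with Benjamini-Hochberg adjustment. The summed MYC-gene FPKM was 2.16 and 2.30 times that of Max in HG, 4.69 and 4.79 times with rFGF1WT and 3.84 and 4.28 times with rFGF1ΔHBS.

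Mxd4, a repressor of the MXD family that is known for its expression in differentiating cells, was the member in which the proteins parted. It had 2.31 and 2.42 FPKM in HG, 4.25 and 3.99 FPKM with rFGF1WT and 1.01 and 1.00 FPKM with rFGF1ΔHBS. The 3 groups did not overlap, and the HG libraries lay between those of the proteins. Means were 2.37 ± 0.0748, 4.12 ± 0.183 and 1.00 ± 0.00491 FPKM (SD, n = 2 each). Against HG, the log2 change of Mxd4 was 0.60 (SE 0.07, adjusted p 0.0258 by limma with Benjamini-Hochberg adjustment) with rFGF1WT and -0.75 (SE 0.07, adjusted p 0.0201) with rFGF1ΔHBS. The direct difference, rFGF1ΔHBS against rFGF1WT, was -1.35 in log2 with a 95% interval from -1.55 to -1.15 and an adjusted p of 0.0125 by limma. Expressed as a ratio of means, Mxd4 was 1.74 times its HG level with rFGF1WT and 0.424 times its HG level with rFGF1ΔHBS. Without the second rFGF1ΔHBS library the adjusted p of the difference between the proteins was 0.0526 by limma, and each change against HG missed the threshold without any 1 of the 6 libraries, with adjusted p of 0.0653 to 0.108 for rFGF1WT and 0.0540 to 0.0775 for rFGF1ΔHBS.

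Exons of Mxd4 share 514 bases with the antisense gene Gm42846, and the sources used here do not say whether fragments were counted by strand. Gm42846 was listed at 0 FPKM in 5 libraries and at 0.0376 FPKM in the second HG library. The authors' table gives 1 value per locus, so that Mxd4 transcript forms could not be told apart.

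Mxd1, the first of the MXD family to be described and a gene that many cells raise as they leave the cycle, had 2.41 and 2.24 FPKM in HG. It had 1.81 and 1.74 FPKM with rFGF1WT and 1.79 and 1.65 FPKM with rFGF1ΔHBS. Every treated library was below both HG libraries, but the log2 changes of -0.26 and -0.29 (SE 0.08 each) did not pass, with adjusted p of 0.152 and 0.123 by limma with Benjamini-Hochberg adjustment.

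Mxd3, an MXD gene known for expression in dividing cells, had 5.88 and 6.07 FPKM in HG, 4.85 and 4.17 FPKM with rFGF1WT and 4.74 and 4.90 FPKM with rFGF1ΔHBS. Here too the treated libraries were all below the HG libraries, with log2 changes of -0.34 and -0.26 (SE 0.08 each) and adjusted p of 0.101 and 0.157 by the same limma fit. Mxd3 shares 105 exon bases with Prelid1 on the opposite strand, which had 90.9 to 117 FPKM over the libraries.

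Mxi1, the MXD family member also called Mxd2, gave replicates that lay far apart. Its level was 25.1 and 11.6 FPKM in HG, 15.1 and 15.6 FPKM with rFGF1WT and 15.2 and 5.03 FPKM with rFGF1ΔHBS. The groups overlapped in each comparison, and the log2 change was -0.15 (SE 0.60) with rFGF1WT and -0.87 (SE 0.60) with rFGF1ΔHBS, with adjusted p of 0.904 and 0.437 by limma. The interval of the second change, from -2.49 to 0.74, holds large changes in both directions. Exons of Mxi1 share 194 bases with the protein-coding gene Gm10197 on the opposite strand, which matched no row by that name. The cause of this spread was not tested.

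Mnt, a broadly expressed MAX-binding repressor often described as the standing antagonist of MYC, had 3.56 and 3.06 FPKM in HG, 3.24 and 2.46 FPKM with rFGF1WT and 2.57 and 8.06 FPKM with rFGF1ΔHBS. A single library, the second with rFGF1ΔHBS, stood above the other 5, which ran from 2.46 to 3.56 FPKM. The same library had the lowest Mxi1. The log2 change of Mnt with rFGF1ΔHBS was 0.40 (SE 0.47, adjusted p 0.643 by limma), and it ran from -0.27 to 1.08 when single libraries were left out.

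Mga, a large protein with both a MAX-binding domain and a T-box domain and the scaffold of a variant Polycomb complex, was the steadiest member. It had 8.79 and 8.90 FPKM in HG, 8.27 and 8.03 FPKM with rFGF1WT and 8.88 and 8.83 FPKM with rFGF1ΔHBS. The log2 change was -0.11 with a 95% interval from -0.25 to 0.03 for rFGF1WT and 0.00 with an interval from -0.14 to 0.14 for rFGF1ΔHBS. These are the narrowest intervals among the tested members.

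**Figure D2:**
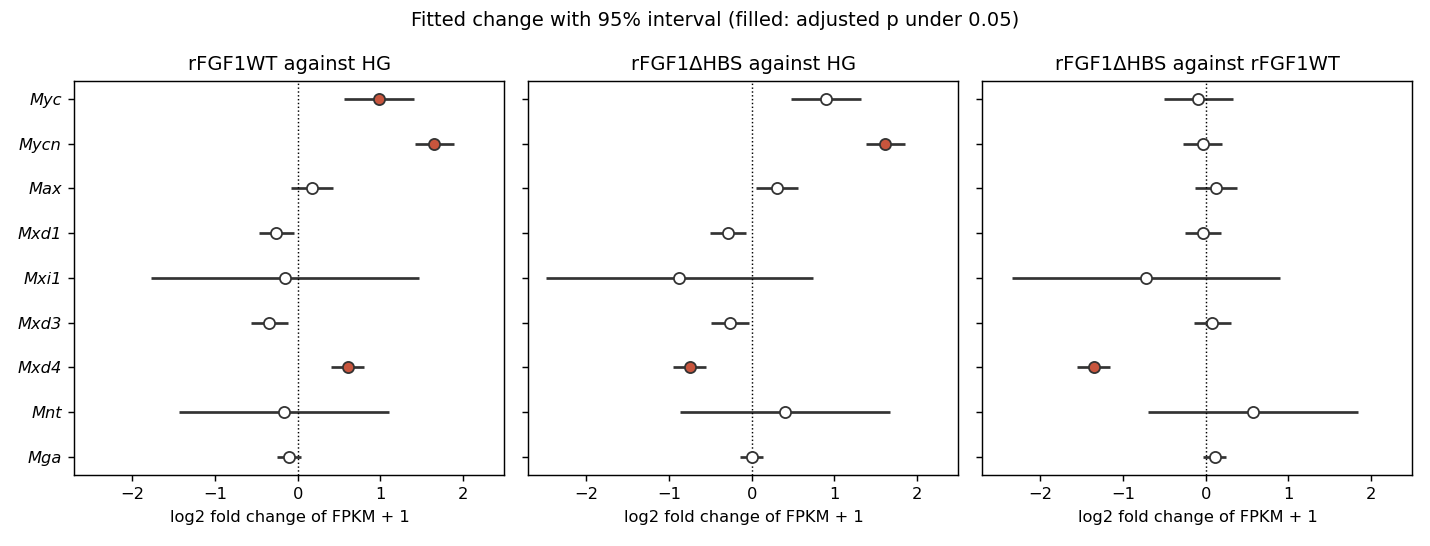
Fitted log2 fold change of FPKM + 1 (horizontal axis) of the 9 tested members in each of 3 comparisons. Points are the limma estimates, lines are 95% intervals and filled points had an adjusted p under 0.05. Mycn stands at 1.65 and 1.62 against HG, Mxd4 lies on opposite sides of 0 with the 2 proteins and at -1.35 between them, and the intervals of Mxi1 and Mnt are the widest.

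Over the 9 tested members, the libraries of the groups did not overlap in 7 with rFGF1WT against HG, in 6 with rFGF1ΔHBS against HG and in 3 between the proteins. Among all tested loci this held for 58.2%, 57.3% and 34.5%. With 2 libraries a group, such a separation was thus common, and an exact permutation test cannot give a two-sided p below 0.333. The median log2 change of the members was -0.11, 0.00 and -0.03 in the 3 comparisons, beside -0.04, -0.04 and 0.01 for all tested loci.

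The order of the levels differed between groups. In HG, Mxi1 had the highest mean, followed by Mga and Myc, whose libraries overlapped, and then by Mxd3, Max, Mnt, Mxd4, Mxd1, Mycn and Mycl. The libraries of Mxd4 and Mxd1 also overlapped in HG. With rFGF1WT the order ran from Myc through Mxi1, Mga, Mycn, Max, Mxd3, Mxd4, Mnt and Mxd1 to Mycl, and only Mxd3 and Mxd4 among neighbours overlapped. With rFGF1ΔHBS it ran from Myc through Mxi1, Mga, Mycn, Max, Mnt, Mxd3, Mxd1 and Mxd4 to Mycl, where Mga overlapped Mxi1, Mnt overlapped Max, and Mxd3 overlapped Mnt. Myc had the third highest mean of the network in HG and the highest with either protein, and Mycn moved from the ninth place to the fourth.

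Summed over Myc, Mycn and Mycl, the activators had 9.10 and 11.5 FPKM in HG, 23.8 and 26.7 FPKM with rFGF1WT and 23.0 and 24.8 FPKM with rFGF1ΔHBS. The 6 repressors together had 48.1 and 34.3 FPKM in HG, 37.5 and 35.9 FPKM with rFGF1WT and 34.2 and 29.5 FPKM with rFGF1ΔHBS. Activator mRNA amounted to 0.189 and 0.335 of repressor mRNA in HG. The ratio was 0.635 and 0.742 with rFGF1WT and 0.674 and 0.842 with rFGF1ΔHBS, above both HG values in every treated library. Repressor mRNA remained the larger sum in all 6 libraries. These sums are descriptions without a test, they weigh every mRNA alike, and the first HG library, with the highest repressor sum, also had the highest Mxi1.

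**Figure D3:**
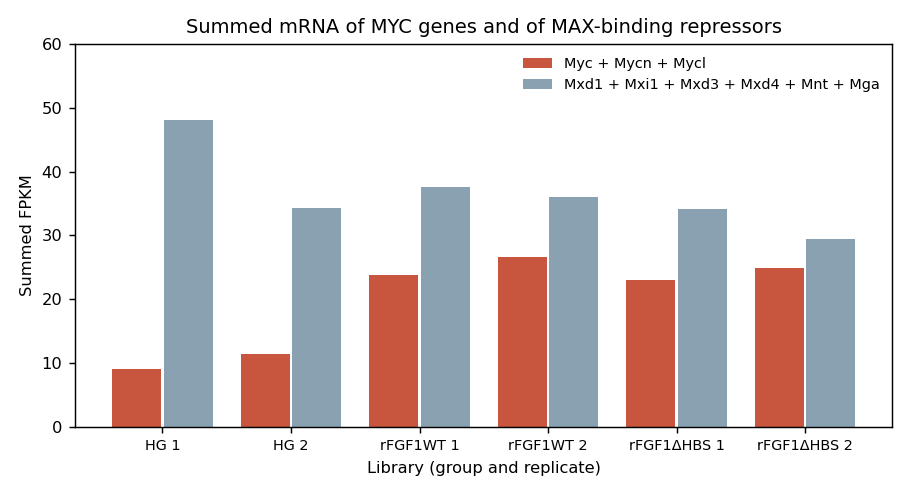
Summed FPKM (vertical axis, from 0) of the MYC genes and of the 6 MAX-binding repressors in each of the 6 libraries, 1 pair of bars per library. The MYC-gene bar goes from 9.10 and 11.5 FPKM in HG to between 23.0 and 26.7 FPKM in the treated libraries, and the repressor bar is the taller of the pair in every library.

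The loci whose profile over the 6 libraries was most like that of Myc were Rfxap, Mtap and Eya2, by the root mean square difference of log2(FPKM + 1) after centring each locus. These differences were 0.0745, 0.0939 and 0.0948. Rfxap, a subunit of the RFX complex at MHC class II promoters, had 0.889 and 1.52 FPKM in HG, 2.68 and 3.13 FPKM with rFGF1WT and 2.85 and 3.20 FPKM with rFGF1ΔHBS. Mtap, an enzyme that recycles methylthioadenosine left over from polyamine synthesis, had 20.7 and 31.1 FPKM, 43.7 and 48.0 FPKM, and 47.1 and 46.3 FPKM in the same order. Eya2, a transcriptional coactivator and phosphatase, had 0.422 and 0.691 FPKM, 1.75 and 1.98 FPKM, and 1.88 and 2.22 FPKM. Its HG values were under 1 FPKM, and its mean reached the limit for testing through the treated libraries. Low levels are compressed on the log2(FPKM + 1) scale, so that likeness to Myc does not mean an equal fold change. As these loci were picked for likeness to Myc over the same 6 libraries, shared features follow from the choice. One such feature is that the second HG library was above the first.

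Genes that MYC is known to activate were examined as a list of 33, of which 31 were tested. This list, like the others, was chosen with earlier results of these data known. With rFGF1WT 12 of them rose and 0 fell, beside 3.26% of all tested loci called higher and 2.94% lower. The median log2 change was 0.35 beside -0.04 for all tested loci. With rFGF1ΔHBS 12 rose and 0 fell, beside 3.37% of all tested loci called higher and 2.89% lower, with a median of 0.37 beside -0.04. At an unadjusted p under 0.05, 18 were higher and 1 lower in each comparison with HG. Of all 10562 tested loci, 2616 and 2632 had such a p in either direction. Between the proteins 0 of the 31 were called by limma, 1 had an unadjusted p under 0.05, and the median was -0.01. When single libraries were left out, far fewer of the 31 were called higher with either protein, and fewer of all tested loci were called as well. The medians then ran from 0.285 to 0.362 with rFGF1WT and from 0.351 to 0.397 with rFGF1ΔHBS.

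The 4 list members with the smallest adjusted p were Ccnd2, Srm, Nop56 and Gart. Ccnd2, the cyclin D2 gene that drives entry into the cell cycle, had 3.33 and 3.27 FPKM in HG, 12.1 and 11.3 FPKM with rFGF1WT and 11.9 and 11.9 FPKM with rFGF1ΔHBS. Its log2 changes were 1.56 and 1.59, with adjusted p of 0.00345 and 0.00392 by limma with Benjamini-Hochberg adjustment. Srm, spermidine synthase in the polyamine pathway, had 11.4 and 13.6 FPKM in HG and 30.8 to 33.5 FPKM in the treated libraries, with log2 changes of 1.33 and 1.299 (adjusted p 0.0133 and 0.0145 by limma). Nop56, a core protein of the particles that modify ribosomal RNA, rose by a log2 of 0.71 and 0.68, and Gart, an enzyme of purine synthesis, rose by 0.50 and 0.53. The other 8 members that rose in each comparison had log2 changes of at most 0.74. Of these, Eif4a1 is merged with Cd68 and Pa2g4 with AC117232.1 in the authors' table, so that their values belong to more than 1 gene.

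Genes that MYC is known to repress were a list of 14, of which 11 were tested. In the limma fit 0 of them fell in either comparison with HG, where 2 and 1 were lower at an unadjusted p under 0.05, while 4 rose with rFGF1WT and 3 with rFGF1ΔHBS. Beside these, 3.26% and 3.37% of all tested loci were called higher and 2.94% and 2.89% lower. The medians were 0.17 and 0.02, and between the proteins 0 were called and 0 had an unadjusted p under 0.05. The members that rose were Thbs1, a secreted matrix glycoprotein, Itgb1, the integrin beta 1 chain, Gadd45a, a stress-response gene, and, with rFGF1WT, Fth1, the ferritin heavy chain. Thbs1 had 128 and 133 FPKM in HG, 177 and 180 FPKM with rFGF1WT and 176 and 188 FPKM with rFGF1ΔHBS, with log2 changes of 0.45 and 0.48. The log2 changes of Itgb1 were 0.30 and 0.26 and those of Gadd45a 0.49 and 0.57. Fth1 had log2 changes of 0.29 and 0.23, with adjusted p of 0.0343 and 0.0518 by limma. When any 1 of the 6 libraries was left out, 0 genes of this list were called by limma in either comparison.

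Genes that act on MYC protein rather than on its mRNA were a list of 14, of which 13 were tested. Of these, 2 fell with each protein against HG, beside 2.94% and 2.89% of all tested loci called lower. When 1 library was left out, 0 to 1 were called lower with each protein, and 0 without either HG library. Ppp2r5a, a regulatory subunit of protein phosphatase 2A, had 12.6 and 12.7 FPKM in HG and 7.04 to 7.36 FPKM in the treated libraries, with log2 changes of -0.72 and -0.76. Fbxo32, an F-box protein of a ubiquitin ligase, had 2.39 and 2.79 FPKM in HG and 1.14 to 1.39 FPKM in the treated libraries, with log2 changes of -0.64 and -0.70.

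The machinery that the network proteins recruit gave no calls. Of the MXD and MNT corepressors, among them Sin3a and the histone deacetylases, 0 of 10 were called by limma in any of the 3 comparisons, 0 had an unadjusted p under 0.05, and the medians against HG were -0.12 and -0.08. Of the MYC coactivators and partners 0 of 14 were called, with medians of 0.01 and 0.08, although 4 and 3 were higher at an unadjusted p under 0.05. Of the MGA complex 0 of 10 were called, with medians of 0.12 and 0.22 and with 2 higher in each comparison with HG at an unadjusted p under 0.05. Of the MLX arm, the glucose-sensing relatives of the network, 0 of 2 tested genes were called or had an unadjusted p under 0.05. Over all loci, 2616 and 2632 had an unadjusted p under 0.05 against HG and 514 between the proteins.

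Of 18 genes of DNA replication and mitosis, 0 were called with rFGF1WT by limma, where 1 was higher and 1 lower at an unadjusted p under 0.05. With rFGF1ΔHBS 1 rose, beside 3.37% of all tested loci called higher, a share that was 3.26% with rFGF1WT. At an unadjusted p under 0.05, 2 were higher and 0 lower with rFGF1ΔHBS. Medians of the 18 genes were -0.05 and -0.02. Between the proteins 0 were called, 1 was higher with rFGF1ΔHBS at an unadjusted p under 0.05, and the median was 0.03. The one that rose was Rrm2, the small subunit of ribonucleotide reductase, with 58.3 and 55.2 FPKM in HG, 71.0 and 69.2 FPKM with rFGF1WT and 78.1 and 75.3 FPKM with rFGF1ΔHBS. Its log2 change of 0.43 with rFGF1ΔHBS had an adjusted p of 0.0260 by limma, and that of 0.30 with rFGF1WT had an adjusted p of 0.0507. Plk1, picked once its values had been seen, had 33.5 and 33.25 FPKM in HG and 33.35 and 34.8 FPKM with rFGF1WT. It had 44.7 and 52.7 FPKM with rFGF1ΔHBS, with a log2 change of 0.53 against HG (adjusted p 0.0521 by limma). The call of Rrm2 was lost without any 1 of the 6 libraries, where limma called 0 genes of this list.

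**Figure D4:**
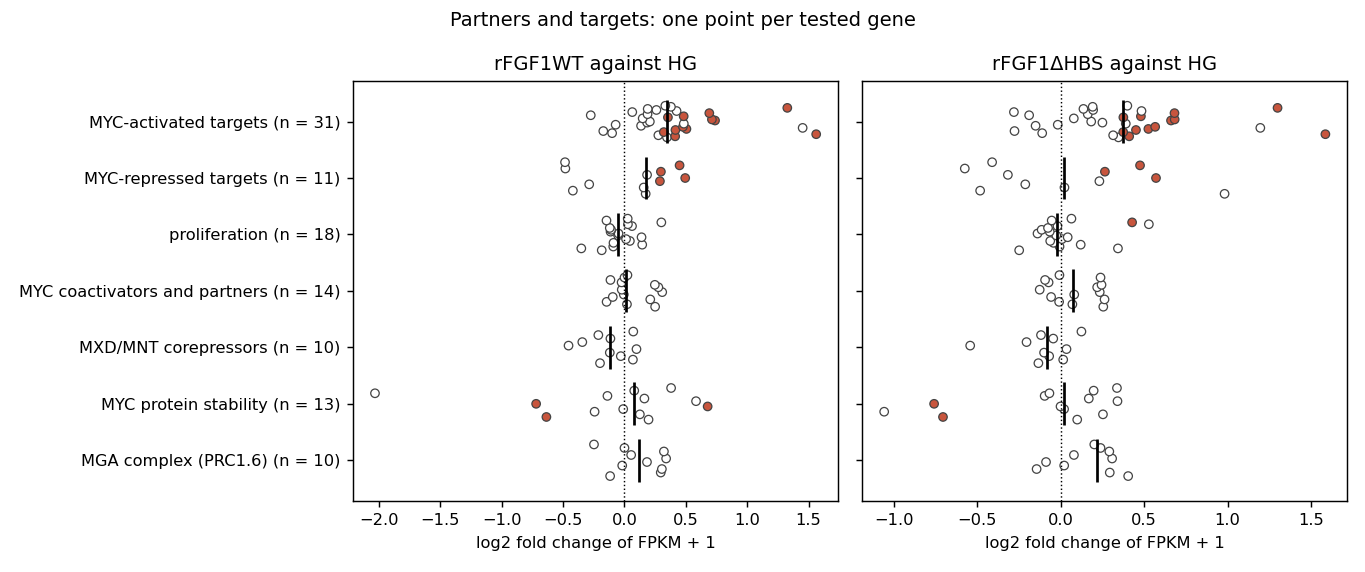
Log2 fold change of FPKM + 1 (horizontal axis) of every tested gene of 7 lists, with rFGF1WT against HG on the left and rFGF1ΔHBS against HG on the right. Each point is 1 gene, filled points had an adjusted p under 0.05 and the bars are list medians. The MYC-activated targets lie mostly to the right of 0, with 12 filled points in each panel, while most replication and mitosis genes gather around 0.

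Markers of other cell types were read beside these changes. Of 8 mesangial and fibroblast markers 4 were tested and 0 called by limma. At an unadjusted p under 0.05, 2 were higher and 2 lower with rFGF1WT, and 2 higher and 1 lower with rFGF1ΔHBS. Of all 10562 tested loci, 2616 and 2632 had such a p in either direction. The 8 markers had summed levels of 47.8 to 50.6 FPKM in HG, 48.2 to 50.2 FPKM with rFGF1WT and 45.6 to 47.4 FPKM with rFGF1ΔHBS. Pdgfrb, at a mean of 28.6 FPKM, and Acta2, at 14.5 FPKM, were well expressed. None of the 5 endothelial markers reached the limit for testing, and their summed level was at most 0.167 FPKM in any library. Of 6 macrophage markers 2 were tested. Csf1r, a growth factor receptor of macrophages, had log2 changes of -1.32 and -1.19. It passed in both comparisons with HG, beside 2.94% and 2.89% of all tested loci called lower. Cd68 is the locus merged with Eif4a1, and Ptprc, Adgre1, Itgam and Lyz2 had means of at most 0.0585 FPKM. When 1 library was left out, the call of Csf1r was lost with rFGF1WT without the second HG library, and with rFGF1ΔHBS without any HG or rFGF1ΔHBS library. The summed macrophage level, carried mainly by the merged locus, was 60.9 to 62.8 FPKM in HG, 66.9 to 69.6 FPKM with rFGF1WT and 71.1 to 71.2 FPKM with rFGF1ΔHBS, and its part in the results was not tested. Of the podocyte markers, 5 of 11 were tested, and 1 rose with rFGF1WT, beside 3.26% of all tested loci called higher. This was Kirrel, a slit diaphragm protein, with a log2 change of 1.24 (adjusted p 0.0483 by limma). When 1 library was left out, 0 to 1 of these markers were called with rFGF1WT. Synpo, an actin-associated protein of the podocyte, had 9.58 and 10.2 FPKM in HG, 5.45 and 4.01 FPKM with rFGF1WT and 4.84 and 6.83 FPKM with rFGF1ΔHBS, with log2 changes of -0.94 and -0.69 and adjusted p of 0.0787 and 0.131 by limma. Podxl, with log2 changes of -0.12 and -0.15, did not pass either.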

How the data were processed

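RNA was measured in 6 libraries of MPCs, 2 for each of 3 groups, and libraries were assigned to groups by their labels. Poly(A) RNA was sequenced from both fragment ends. The authors deposited FPKM, 1 value per locus and library, and by their methods edgeR was used for these FPKM. The submitters' processing notes list HISAT2 2.0, StringTie 1.3.0, Bowtie 0.12.2 and the build mm8 without saying what each was used for. The transcripts of the members were all found in GENCODE M21 (GRCm38), from which positions were taken. Pathway annotation in the table was not used, and 0 columns of sample values were left out.

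Read depth is unknown from FPKM. The commonest ratio between low values of 2 libraries, which step by whole fragments, gave relative depths of 0.973 to 1.01 of the first HG library. Whether strand was used in counting is not given in the sources used here.

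log2(FPKM + 1) of all 6 libraries was fitted in R 4.3.3 by limma 3.58.1 (lmFit, contrasts, eBayes with a trend), with 3 residual degrees of freedom. The fit was tested on simulated data. Python 3.11.15 with pandas 2.3.3 and numpy 2.4.6 served for tables and sequence searches, and matplotlib 3.10.9 for plots. Promoter windows came from RefSeq (GRCm38.p6).

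The members and the 12 gene lists were chosen with earlier results of these data known. All 10 members are named. From each list, genes with an adjusted p under 0.05 in any comparison are named, up to 4 by the smallest adjusted p, and marker genes and genes merged with or overlapping a named locus are named beside them. Of the lists, 2 hold Wdr5, 2 hold Col1a1, and Phb1, Cip2a and Tcf21 matched no row by these symbols. Alternatives were a pseudocount of 0.1, no limit on low values or a mean FPKM of at least 5, median-ratio scaling, only the 4 libraries compared, a replicate block, summed rows, a 2-fold limit, and leaving out each library. Counts for the gene lists under these settings were added after the data were seen. Results for some genes of the lists are not reported here.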

Additional observations from a re-analysis of the deposited data

Results flagged for a closer look

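Mxd4 stood apart because its response against HG differed between the proteins when the difference itself was tested. It rose by a log2 of 0.60 with rFGF1WT and fell by 0.75 with rFGF1ΔHBS, and the direct difference, rFGF1ΔHBS against rFGF1WT, was -1.35 with an adjusted p of 0.0125 by limma with Benjamini-Hochberg adjustment. Both rFGF1ΔHBS libraries, at 1.01 and 1.00 FPKM, were below both HG libraries, and both rFGF1WT libraries, at 4.25 and 3.99 FPKM, were above them. The cause was not tested.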

How the results depend on the processing

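With rFGF1WT against HG, 3 members were called, and 1 was called with no limit on low values, with only the 4 libraries compared, with the replicate block, with the 2-fold limit, and without any 1 library (1 to 1). With rFGF1ΔHBS against HG, 2 members were called, and 1 with no limit on low values, with only the 4 libraries compared, with the 2-fold limit and without any 1 library (1 to 1), but 0 with the replicate block. Between the proteins 1 member was called, 0 with a mean FPKM of at least 5, where Mxd4 was not tested, 0 with the replicate block, where its adjusted p by limma was 0.110, and 0 to 1 without 1 library. Deviations of same-numbered libraries from their group means correlated at -0.0212, 0.0980 and -0.0467 between the groups. These correlations were taken over all tested loci and do not describe single genes. Whether the replicate number stands for a pairing of libraries was not tested. Under the block, the adjusted p of Mycn was 0.0498 with rFGF1WT and 0.0538 with rFGF1ΔHBS by limma. A lone library in a leave-out fit is assumed to vary like the other groups.

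Over 342 recomputed changes of single members, 301 kept direction and side of the threshold, 30 no longer passed, 2 newly passed and 9 turned direction, all 9 on leaving out a library. Mycn with rFGF1WT passed in 13 of 13 alternatives, Myc with rFGF1WT in 4 of 13, Mxd4 with rFGF1WT in 3 of 12 and the Mxd4 difference between proteins in 10 of 12. These tallies include summed rows, which repeated the main fit exactly because every member had 1 row. The log2 change could not move with the limit on low values, the replicate block or libraries dropped from outside the comparison. There only the adjusted p could move. Direction could thus turn only with the other pseudocount, median-ratio scaling or the loss of a compared library. Changes that turned direction ran from -0.68 to 0.38 for Mxi1 with rFGF1WT, from -0.27 to 1.08 for Mnt and -0.0062 to 0.0102 for Mga with rFGF1ΔHBS, and, between the proteins, from -0.20 to 0.0295 for Myc, -0.14 to 0.0659 for Mycn, -0.0666 to 0.0066 for Mxd1, -0.0092 to 0.17 for Mxd3 and -0.10 to 1.24 for Mnt. Of all loci called with rFGF1WT, 344 were higher and 310 lower, and with median-ratio scaling 410 and 235. The replicate block left 26 higher and 15 lower with rFGF1WT, and 25 and 14 with rFGF1ΔHBS. With only the 4 libraries compared these counts were 91 and 79, and 102 and 87. Calls against HG thus fell over all loci too, as they did in every fit without 1 library. Of the 31 MYC-activated targets, 1 to 13 were called higher with either protein over the alternatives and 0 lower, with medians of 0.29 to 0.40 with rFGF1WT and 0.35 to 0.42 with rFGF1ΔHBS, and the replicate block left 1 with each. With the replicate block, and also with only the 4 libraries compared, 0 MYC-repressed targets and 0 replication and mitosis genes were called by limma against HG, and of the genes acting on MYC protein 0 were lower with the block and 1 with only the 4 libraries. The cause of these losses was not tested.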

Other observations

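Among the genes that act on MYC protein, Trim32, a ubiquitin ligase that can mark MYC for degradation, had 16.6 FPKM in the second HG library and 15.0 FPKM in the second rFGF1ΔHBS library, and 0.0493 to 0.0585 FPKM in the other 4. Gsk3b, a kinase that phosphorylates MYC, had 5.73 FPKM in the first rFGF1ΔHBS library and 20.6 to 25.4 FPKM in the other 5. Both were picked once their values had been seen, and neither was called by limma. Such library-to-library swings were thus not restricted to Mxi1 and Mnt, and their cause was not tested.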
